A study of Homo sapiens with 34 samples.

Results

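The G1 cyclins and the inhibitors of their kinases were described here as 10 genes, CCND1, CCND2, CCND3, CCNE1, CCNE2, CDKN1B, CDKN1C, CDKN2A, CDKN2B and CDKN2C, taken by symbol from a table of 26336 genes. All 10 symbols were present, and their levels were followed over 34 RNA-seq libraries in 17 groups. The study grew 4 human prostate epithelial lines on tissue-culture plastic or on plates with a layer of amorphous calcium phosphate (ACP), a precursor of bone mineral. RWPE is a non-tumorigenic line, LNCaP comes from a lymph node metastasis, and VCaP and MDAPCa2a come from bone metastases. The groups were combinations of surface and medium: full control medium, medium with serum stripped of steroids by charcoal and dextran, and stripped serum with added androgen.

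The androgen is named DHT in the titles and testosterone in the protocol, at a labelled concentration of 100 mM. LNCaP and VCaP had all 5 combinations that were made: plastic with control or stripped medium, and ACP with control, stripped or androgen medium. MDAPCa2a lacked the ACP control group, and its plastic, unlike its ACP, carried an additional attachment coating. RWPE had plastic control, ACP control and ACP androgen groups only, and its control medium was a serum-free keratinocyte medium, so a change of serum and medium could not be told apart from the androgen in that line. Groups held 2 libraries each, except RWPE on ACP with androgen (3) and VCaP on plastic in stripped serum (1). Stripped, androgen and ACP cultures ran for 4 days, and the plastic control cultures were labelled as continuous culture. No label ties replicates to separate cultures, so p-values measure the spread between libraries, which may be technical.

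D-type cyclins bind CDK4 or CDK6 in G1, and E-type cyclins bind CDK2 later. Both kinases phosphorylate the pocket proteins, which releases E2F factors that switch on the genes of DNA synthesis, the E cyclins among them. The INK4 inhibitors (CDKN2A, CDKN2B, CDKN2C) block CDK4 and CDK6, and the KIP inhibitors (CDKN1B, CDKN1C) act mainly on cyclin E with CDK2. Prostate epithelium depends on androgen for growth and differentiation, and its luminal cells express androgen-driven genes such as the kallikreins.

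The libraries held 15.4 M to 44.8 M counted reads (1 M being 1000000), with 34.9 M to 44.8 M in the 8 plastic control libraries and 15.4 M to 37.0 M in the other 26. In RWPE, LNCaP and MDAPCa2a the plastic control libraries also differed from the rest of their line in liver-type transcripts. In LNCaP the 5 genes summed to 11.4 to 16.9 CPM (counts per M of library size) there, and to at most 1.65 CPM elsewhere. In RWPE the sums were 13.1 to 13.9 CPM against at most 0.536 CPM. In MDAPCa2a they were 6.65 to 11.7 CPM against at most 0.628 CPM. The VCaP plastic control sums of 64.4 to 144 CPM lay within the 15.5 to 320 CPM of its other groups. In comparisons of plastic control libraries with other groups, the continuous culture and any difference in library preparation cannot be told apart from the surface or the medium. Markers of basal epithelium summed to 3358 to 15852 CPM in RWPE and to at most 37.3 CPM in the other lines. ERG, marker of the VCaP fusion, lay at 125 to 873 CPM in VCaP and at most 2.32 CPM elsewhere. The luminal marker HOXB13 lay at only 3.20 to 8.89 CPM in RWPE, where KRT8 and KRT18 were present, and leukocyte markers summed to at most 0.176 CPM in any library.

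**Figure D1:**
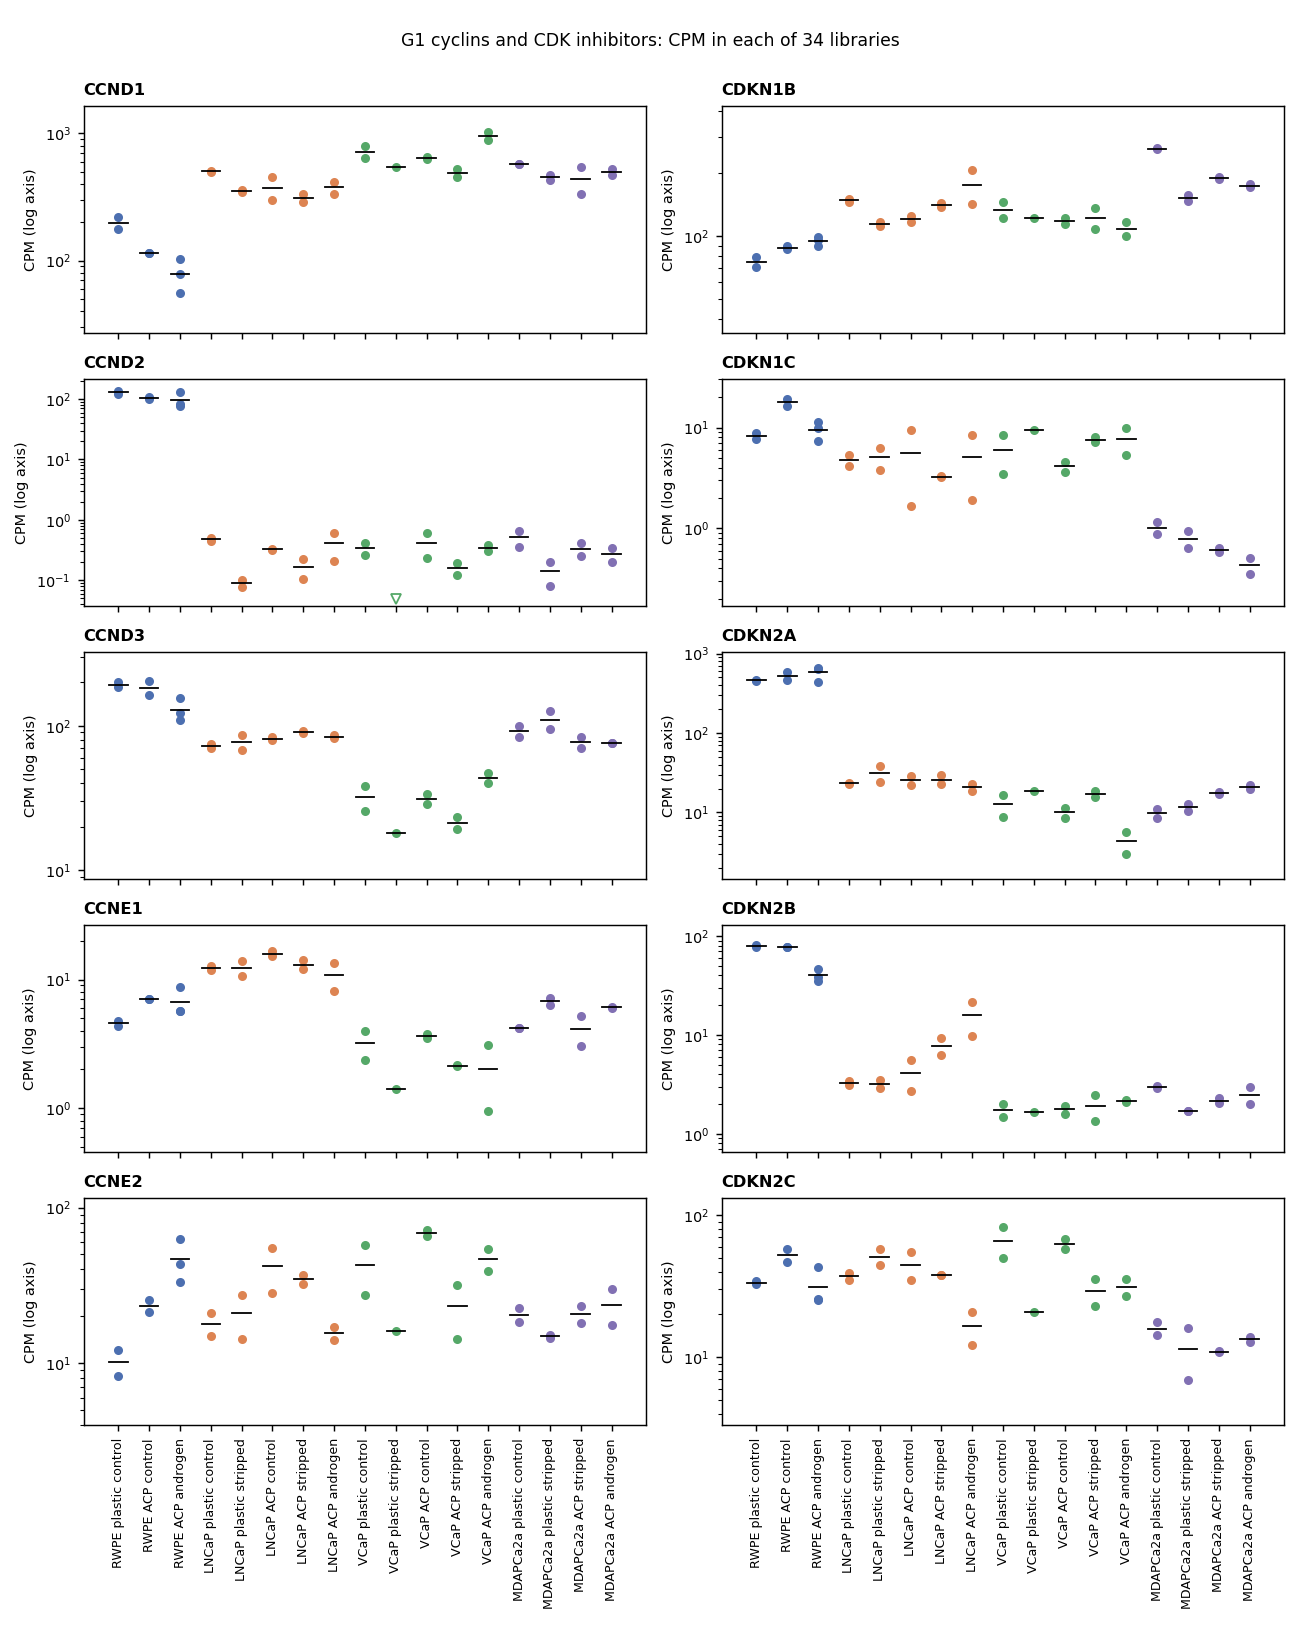
CPM of each of the 10 genes in each of the 34 libraries (points, log axis), by group, with a bar at the group mean and colours for the 4 lines. CCND2, CDKN2A and CDKN2B separate RWPE from the 3 cancer lines, and the open triangle marks the library without a CCND2 read.

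The lines differed first in their D cyclins. CCND1, the D cyclin most often raised in epithelial tumours, was lowest in RWPE, at 55.9 to 221 CPM over 7 libraries, and lay at 289 to 506 CPM in LNCaP, 334 to 576 CPM in MDAPCa2a and 451 to 1031 CPM in VCaP. CCND2 lay at 78.4 to 136 CPM in RWPE and at no more than 0.661 CPM in any library of the other lines. CCND3 was highest in RWPE (110 to 203 CPM) and lowest in VCaP (18.0 to 46.9 CPM), and LNCaP (68.0 to 92.9 CPM) and MDAPCa2a (70.3 to 126 CPM) overlapped between them. For CCND2 and CCND3 the RWPE range overlapped no LNCaP or VCaP library.

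The tests between lines used the plastic control groups, where every line had 2 libraries but its own medium. In this setting 7 of the 10 genes were called between LNCaP and RWPE (edgeR's quasi-likelihood test, Benjamini-Hochberg adjusted p below 0.05 over all genes tested), against 57.4% of all genes. Between VCaP and RWPE it was 8 of 10, against 62.4% of all genes, and between MDAPCa2a and RWPE 9 of 10, against 56.7%. Most genes differed between these lines, so the counts alone do not set the 10 genes apart. CCND1 was 176.6 and 221 CPM in RWPE, 506 and 500 CPM in LNCaP, 638 and 796 CPM in VCaP and 573 and 576 CPM in MDAPCa2a, higher in all 6 cancer line libraries than in both RWPE libraries. Its log2 difference from RWPE was 1.36 ± 0.24 (SE) in LNCaP, 1.87 ± 0.24 in VCaP and 1.54 ± 0.24 in MDAPCa2a, with an adjusted p of at most 3.20e-05. CCND3 was 186 and 201 CPM in RWPE, 74.8 and 70.8 in LNCaP, 83.3 and 100 in MDAPCa2a and 25.8 and 38.3 in VCaP. It was lower than RWPE by 1.39 ± 0.20 (log2) in LNCaP, 1.07 ± 0.20 in MDAPCa2a and 2.57 ± 0.21 in VCaP, and VCaP was also below LNCaP (2.27-fold, adjusted p = 2.35e-05) and below MDAPCa2a (2.84-fold, adjusted p = 9.45e-07).

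CCND2, the D cyclin otherwise best known from blood cells, gonads and stem cells, was read 1317 to 5049 times in the RWPE libraries and 0 to 23 times in the 27 libraries of the cancer lines. In plastic control its mean was 129 CPM in RWPE, against 0.511 CPM in MDAPCa2a, 0.336 CPM in VCaP and 0.476 CPM in LNCaP, with no overlap between RWPE and any other line. The log2 difference from RWPE was -8.06 ± 0.39 in LNCaP, -8.53 ± 0.41 in VCaP and -7.98 ± 0.39 in MDAPCa2a. Whether the few reads in the cancer lines came from other libraries was not tested.

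Per base of transcript, which allows genes to be compared, CCND1 made up 16.5 to 30.8% of D cyclin signal in RWPE libraries and CCND3 57.3 to 71.0%. In LNCaP CCND1 held 60.1 to 77.3%, in MDAPCa2a 64.4 to 79.0% and in VCaP 90.1 to 93.6%. The shares are a description of CPM divided by the length of 1 principal transcript for each gene and were not tested.

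**Figure D2:**
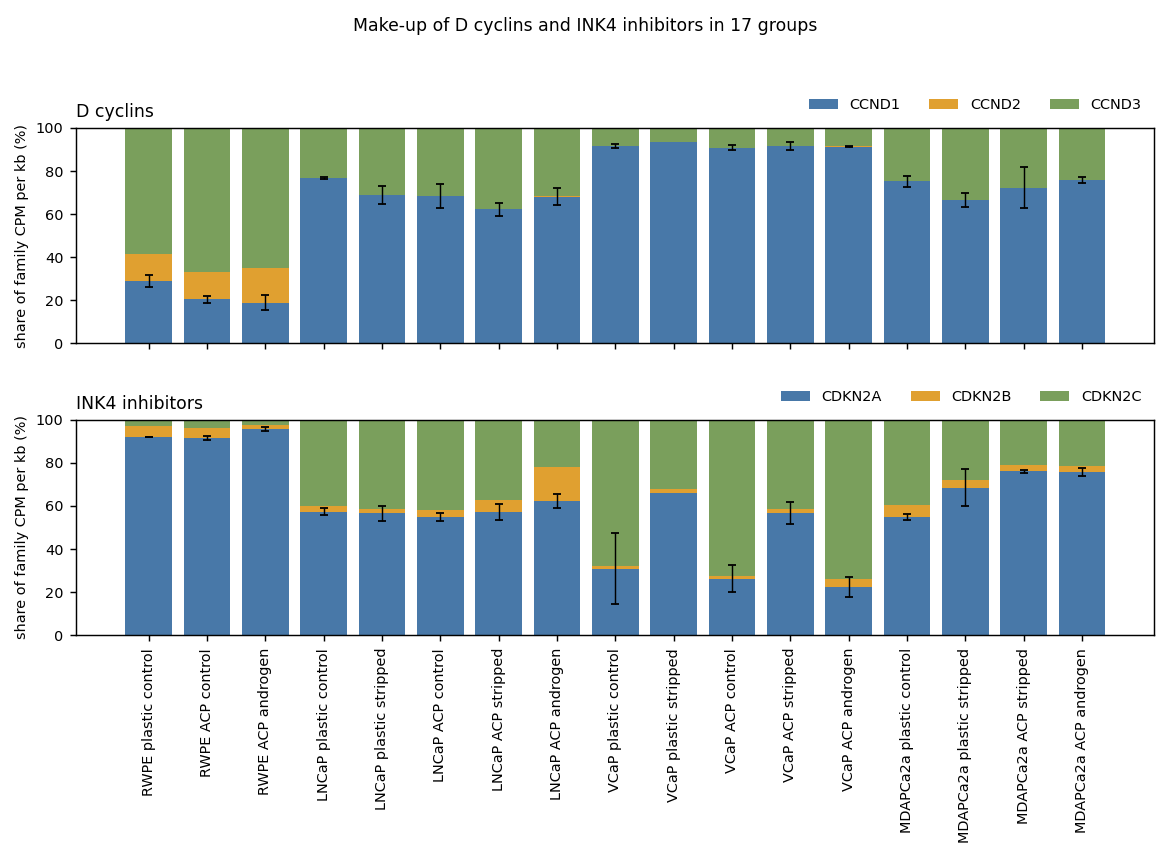
Share of the summed CPM per kb held by each gene of the D cyclins (upper panel) and of the INK4 inhibitors (lower panel), as the mean of each of the 17 groups, with the SD over libraries drawn for CCND1 and CDKN2A. CCND1 takes over 90% of D cyclin signal in every VCaP group, and the CDKN2A share in VCaP is highest in the stripped groups.

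The E cyclins had a lower mean CPM than CCND1 in every group and split the cancer lines from each other. In RWPE on ACP with androgen, replicate 1 alone had more CCNE2 (62.4 CPM) than CCND1 (55.9 CPM). CCNE1 was highest in LNCaP, with 11.9 and 12.8 CPM in plastic control, against 4.76 and 4.38 CPM in RWPE, 2.37 and 4.01 CPM in VCaP and 4.18 and 4.18 CPM in MDAPCa2a. Both LNCaP libraries lay above all 6 others, and LNCaP exceeded RWPE 2.73-fold (adjusted p = 0.00105), VCaP 3.85-fold (adjusted p = 6.91e-05) and MDAPCa2a 2.97-fold (adjusted p = 8.86e-04). In plastic control CCNE2 was instead highest in VCaP. It was 27.2 and 57.8 CPM in VCaP plastic control, 14.9 and 20.9 CPM in LNCaP, 18.4 and 22.5 CPM in MDAPCa2a and 12.2 and 8.25 CPM in RWPE. VCaP exceeded LNCaP in CCNE2 2.38-fold (adjusted p = 0.0105) and MDAPCa2a 2.10-fold (adjusted p = 0.0267). Its 2 libraries differed from each other by about as much, and without the higher, replicate 2, neither call held (adjusted p = 0.286 and 0.470). The first was also lost without LNCaP replicate 1 (0.108), and the second without MDAPCa2a replicate 1 (0.149) or 2 (0.0604). Per base of transcript, CCNE2 held 80.6 to 96.2% of E cyclin signal in VCaP and 43.4 to 69.2% in LNCaP.

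CDKN1B, which encodes p27, was the most even of the inhibitors across lines. Over all libraries it lay at 71.3 to 99.2 CPM in RWPE, 112 to 208 CPM in LNCaP, 99.9 to 145.6 CPM in VCaP and 148 to 264 CPM in MDAPCa2a. In plastic control the 2 MDAPCa2a libraries (262 and 264 CPM) lay above those of LNCaP (146 and 151 CPM) and VCaP (145.6 and 122 CPM), and RWPE was lowest (79.6 and 71.3 CPM). The log2 difference from RWPE was 1.00 ± 0.16 in LNCaP, 0.84 ± 0.16 in VCaP and 1.81 ± 0.16 in MDAPCa2a, with an adjusted p of at most 5.89e-05. CDKN1C, which encodes p57 and is an imprinted gene, was nearly absent from MDAPCa2a, at 0.351 to 1.16 CPM over its 8 libraries, the highest of which lay below the lowest of any other line. In plastic control MDAPCa2a was below RWPE by 3.00 ± 0.62 on the log2 scale (adjusted p = 2.01e-04). LNCaP libraries of 1 group could differ widely in CDKN1C, with 1.68 and 9.56 CPM on ACP in control medium and 1.90 and 8.37 CPM on ACP with androgen.

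The INK4 inhibitors CDKN2A and CDKN2B, neighbours on chromosome 9, were higher in every RWPE library than in any library of the cancer lines. CDKN2A was 444 to 655 CPM in the 7 RWPE libraries, and at most 22.3 CPM in MDAPCa2a, 18.9 CPM in VCaP and 38.0 CPM in LNCaP. In plastic control, where RWPE had 451 and 467 CPM, the log2 difference was -4.28 ± 0.31 in LNCaP, -5.16 ± 0.33 in VCaP and -5.54 ± 0.33 in MDAPCa2a (adjusted p at most 2.50e-11). CDKN2B was 77.6 and 80.7 CPM in RWPE plastic control, 3.39 and 3.14 CPM in LNCaP, 2.02 and 1.47 CPM in VCaP and 3.07 and 2.91 CPM in MDAPCa2a. Its log2 difference from RWPE was -4.58 ± 0.35 in LNCaP, -5.49 ± 0.37 in VCaP and -4.72 ± 0.36 in MDAPCa2a. Over all libraries CDKN2B lay at 35.2 to 80.7 CPM in RWPE. It was at most 3.07 CPM in MDAPCa2a, 2.45 CPM in VCaP and 21.7 CPM in LNCaP. RWPE and LNCaP were nearest on ACP with androgen, at means of 40.2 and 15.7 CPM. MTAP, the gene next to CDKN2A on the other side, was read in every library of every line (395 to 2691 reads).

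CDKN2A encodes 2 unrelated proteins, the INK4a inhibitor and ARF, from separate first exons. A count by symbol cannot separate them, and CDKN2A exons also overlap the antisense gene CDKN2B-AS1, which was read 63 to 112 times in RWPE and at most 23 times in the other lines. The 250 bases before the 2 CDKN2A starts and the CDKN2B start are shown because both genes were lower in all 3 cancer lines than in RWPE. They are from RefSeq on GRCh38.p14, all on the minus strand, 5′ to 3′, and capitals mark the GC box CCGCCC on either strand.

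CDKN2A, upstream start, chr9:21995325-21995574: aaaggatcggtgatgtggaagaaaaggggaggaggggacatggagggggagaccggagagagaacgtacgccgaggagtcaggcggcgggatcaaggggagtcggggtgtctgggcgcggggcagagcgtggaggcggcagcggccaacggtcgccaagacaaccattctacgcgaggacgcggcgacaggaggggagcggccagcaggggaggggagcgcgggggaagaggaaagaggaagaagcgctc

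CDKN2A, downstream start, chr9:21974858-21975107: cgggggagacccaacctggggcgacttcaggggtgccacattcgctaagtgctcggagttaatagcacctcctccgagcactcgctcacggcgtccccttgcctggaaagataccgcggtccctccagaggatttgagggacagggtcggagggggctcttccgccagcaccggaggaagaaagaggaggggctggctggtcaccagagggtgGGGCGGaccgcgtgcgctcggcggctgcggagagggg

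CDKN2B, chr9:22009306-22009555: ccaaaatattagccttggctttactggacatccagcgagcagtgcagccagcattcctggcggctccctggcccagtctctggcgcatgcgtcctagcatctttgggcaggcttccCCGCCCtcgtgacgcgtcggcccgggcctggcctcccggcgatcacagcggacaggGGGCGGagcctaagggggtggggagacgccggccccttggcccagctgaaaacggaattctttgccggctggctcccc

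The GC box occurred 0 times before the upstream CDKN2A start, 1 time before the downstream start and 2 times before CDKN2B, and it was held by 42.6% of 35116 RefSeq windows of this length. GC content was 66.8%, 66.8% and 66.4%. In the windows of the 6 genes that the RefSeq promoter table matched and that were searched, neither the E2F motif (TTTCGCGC, TTTGGCGC or TTTCCCGC, either strand, 2.32% of all windows) nor the androgen receptor hexamer AGAACA (either strand, 12.4% of all windows) occurred.

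CDKN2C, which encodes p18, did not follow its 2 relatives. It was 32.6 and 34.2 CPM in RWPE plastic control, 34.8 and 39.2 CPM in LNCaP, 49.8 and 82.3 CPM in VCaP and 14.3 and 17.6 CPM in MDAPCa2a. VCaP was highest and MDAPCa2a lowest without overlap, and VCaP exceeded MDAPCa2a 4.18-fold (adjusted p = 1.86e-05), LNCaP 1.79-fold (adjusted p = 0.0356) and RWPE 2.01-fold (adjusted p = 0.0108). Without VCaP replicate 2 the last 2 calls were lost. The call against LNCaP was also lost without LNCaP replicate 1 or 2, and the call against RWPE without RWPE replicate 1. RWPE and LNCaP were neighbours in this order that did not pass the test. Per base of transcript CDKN2A was 91.0 to 96.5% of INK4 signal in RWPE, whereas CDKN2C was 32.0 to 79.8% of it in VCaP. Among the cancer lines alone, 6 of the 10 genes were called between VCaP and LNCaP (52.6% of all genes), 5 between MDAPCa2a and LNCaP (40.2%) and 5 between VCaP and MDAPCa2a (52.4%).

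The effect of androgen was tested against stripped serum alone, on ACP, in 3 lines. In LNCaP 1 of 10 genes was called, CDKN2C, which fell, against 7.73% of all genes. In VCaP 3 of 10 were called, against 17.5% of all genes: CCND1 and CCND3 rose and CDKN2A fell. In MDAPCa2a 0 of 9 tested were called (CCND2 had too few reads), as were 0% of all genes. DESeq2 also called 0 of the 9, and 0 were under 0.05 before adjustment. Over all genes in MDAPCa2a, DESeq2 called 3, and 236 were under 0.05 before adjustment. The androgen-driven genes KLK3, KLK2, TMPRSS2 and FKBP5 rose in LNCaP (4 of 4 called, median log2 change 1.86) and in VCaP (4 of 4, median 3.11), and none of the 4 was called in MDAPCa2a (median -0.34).

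CCND1 in VCaP on ACP was 652 and 631 CPM in control medium, 451 and 524 CPM in stripped serum and 882 and 1031 CPM with androgen. Both androgen libraries lay above all 4 others of that line on ACP. The androgen groups differed by 0.97 ± 0.21 on the log2 scale (1.96-fold, adjusted p = 0.0138). The call was lost without stripped replicate 1 (adjusted p = 0.0723) or androgen replicate 2 (adjusted p = 0.0897). In LNCaP it was 289 and 334 CPM in stripped serum and 336 and 415 CPM with androgen, a log2 difference of 0.26 ± 0.19 that did not pass the test.

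CCND3 in VCaP was 28.6 and 33.5 CPM in control medium, 23.5 and 19.3 CPM in stripped serum and 40.0 and 46.9 CPM with androgen, so again androgen was highest and stripped lowest. Androgen exceeded stripped 2.03-fold (log2 1.02 ± 0.24, adjusted p = 0.0205), a call lost without stripped replicate 1 (adjusted p = 0.0540), stripped replicate 2 (0.0794) or androgen replicate 2 (0.117). In LNCaP CCND3 hardly differed between media, with 92.9 and 89.1 CPM in stripped serum and 86.2 and 82.0 CPM with androgen (log2 -0.12 ± 0.13, not called). The difference between the VCaP and LNCaP androgen effects on CCND3 itself passed the test, at 1.13 ± 0.28 on the log2 scale (adjusted p = 0.0115, and 0.0650 without VCaP androgen replicate 2). That on CCND1 was 0.69 ± 0.33 and did not.

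CCNE2 lay on opposite sides of the stripped group in the 2 lines. In LNCaP it was 32.4 and 37.0 CPM in stripped serum and 14.1 and 17.1 CPM with androgen. In VCaP it was 14.3 and 31.9 CPM in stripped serum and 39.1 and 53.9 CPM with androgen. Neither line overlapped between media, but neither change passed the test on its own (log2 -1.16 ± 0.37, adjusted p = 0.0776 in LNCaP, and 1.01 ± 0.41, adjusted p = 0.111 in VCaP). The difference between these effects was 2.15 ± 0.56 on the log2 scale, or 4.44-fold, and did pass (adjusted p = 0.0150). It missed the threshold without LNCaP stripped replicate 2 (adjusted p = 0.0504), LNCaP androgen replicate 1 (0.0654), VCaP stripped replicate 1 (0.0956) or VCaP androgen replicate 2 (0.0746). CCNE1 had log2 changes of -0.28 ± 0.25 in LNCaP and -0.08 ± 0.55 in VCaP, neither called.

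CDKN2A fell with androgen in VCaP, from 15.9 and 18.6 CPM in stripped serum to 3.00 and 5.66 CPM, with 8.53 and 11.5 CPM in control medium. The 3 media did not overlap, and the androgen group was the lowest. The log2 change was -1.99 ± 0.40, or 3.98-fold lower (adjusted p = 0.0106, and 0.0643 without androgen replicate 1). In LNCaP CDKN2A was 29.5 and 22.5 CPM in stripped serum and 18.7 and 22.6 CPM with androgen, and in MDAPCa2a 17.1 and 18.1 CPM and then 22.3 and 19.8 CPM, neither called. The VCaP effect differed from that in LNCaP by -1.68 ± 0.41 (adjusted p = 0.0102, lost without LNCaP stripped replicate 2, at 0.0554, or VCaP androgen replicate 1, at 0.0622) and from that in MDAPCa2a by -2.26 ± 0.42 (adjusted p = 0.00168). The effect on CCND3 also differed between VCaP and MDAPCa2a, by 1.04 ± 0.28 (adjusted p = 0.0245). That call was lost without VCaP stripped replicate 2 (adjusted p = 0.0767), VCaP androgen replicate 2 (0.0966), MDAPCa2a stripped replicate 1 (0.0997) or either MDAPCa2a androgen replicate (0.0654 and 0.0785).

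CDKN2C fell with androgen in LNCaP, from 38.0 and 37.9 CPM to 12.3 and 20.7 CPM, with 54.8 and 35.0 CPM in control medium. Both androgen libraries lay below all 4 others (log2 -1.21 ± 0.26, 2.31-fold lower, adjusted p = 0.0194), a call lost without stripped replicate 1 (adjusted p = 0.0979), stripped replicate 2 (0.103) or androgen replicate 1 (0.126). In VCaP it was 22.8 and 35.6 CPM in stripped serum and 26.9 and 35.8 CPM with androgen, groups that overlapped. The difference between the lines was 1.29 ± 0.47 (adjusted p = 0.0798) and was not called. CDKN2B in LNCaP lay at 2.68 and 5.53 CPM in control medium, 9.33 and 6.25 CPM in stripped serum and 21.7 and 9.77 CPM with androgen, in the opposite order to CDKN2C, and was not called between stripped and androgen (log2 1.01 ± 0.39, adjusted p = 0.137). CDKN1B and CDKN1C were not called in either line.

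**Figure D3:**
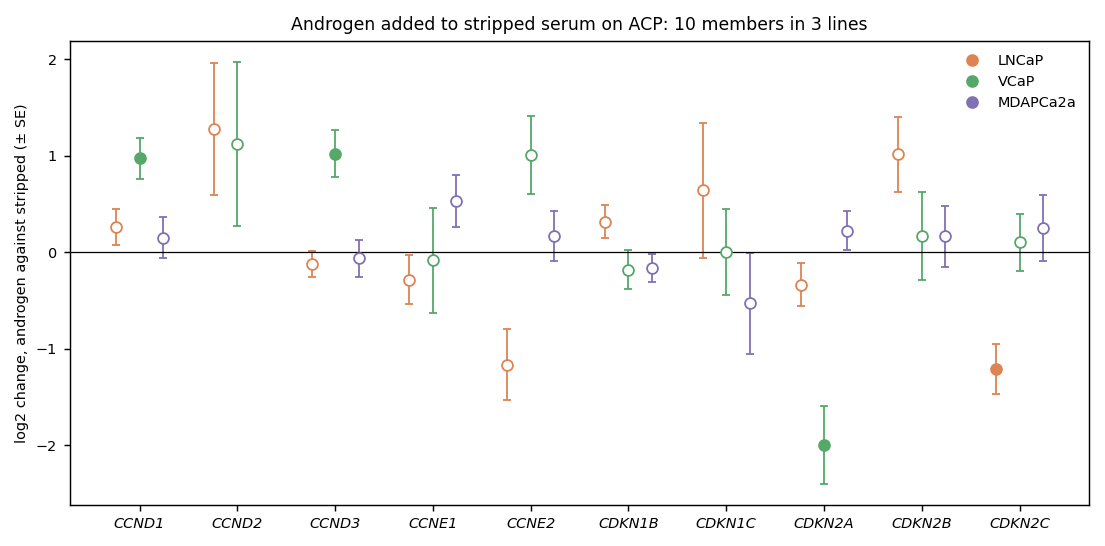
Log2 change of each of the 10 genes with androgen against stripped serum on ACP, ± SE of the fit, in LNCaP, VCaP and MDAPCa2a, with filled points for genes called. CDKN2C in LNCaP and CCND1, CCND3 and CDKN2A in VCaP are filled, and CCNE2 lies below 0 in LNCaP and above 0 in VCaP.

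**Figure D4:**
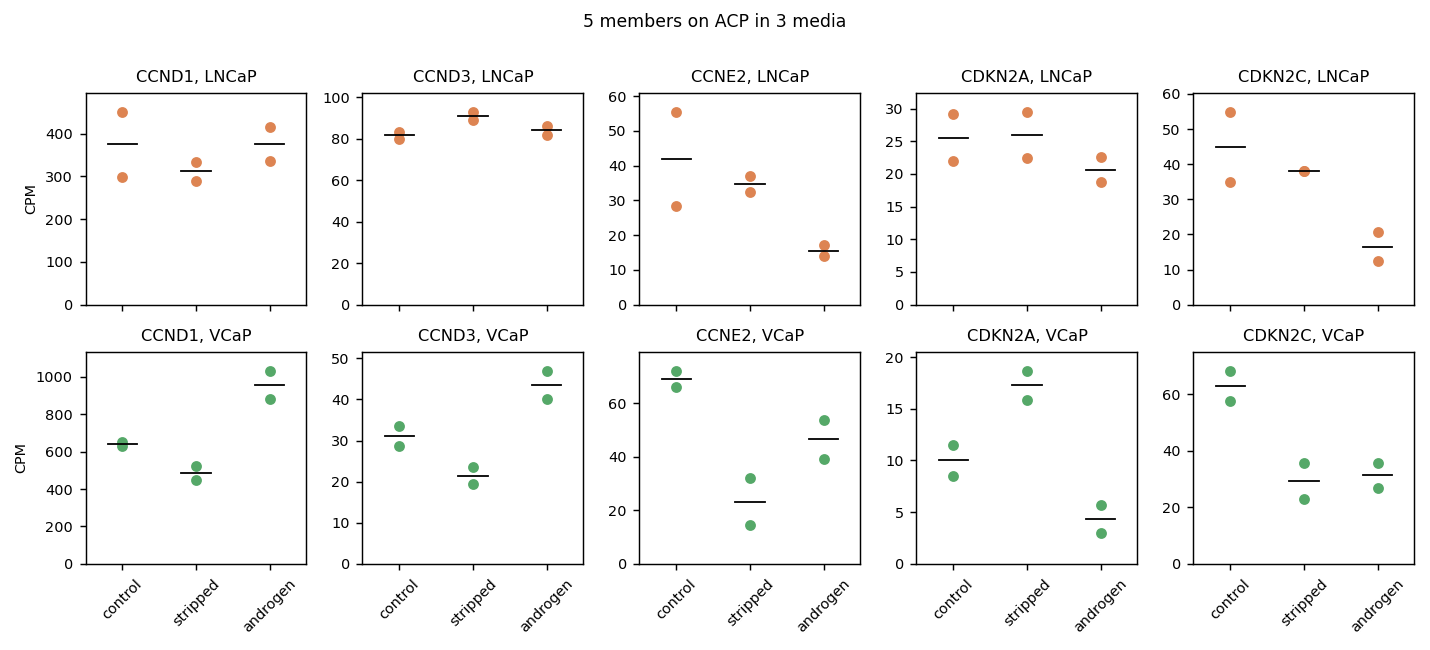
CPM of 5 genes in each ACP library of LNCaP (upper row) and VCaP (lower row) in 3 media, with bars at the group means of 2 libraries and axes from 0. In VCaP, CCND1 and CCND3 are highest and CDKN2A lowest with androgen, and in LNCaP CCNE2 and CDKN2C are lowest with androgen.

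Over the differences between lines, 3 of 10 genes were called between VCaP and LNCaP (CCND3, CCNE2, CDKN2A), against 10.9% of all genes, and 2 of 10 between VCaP and MDAPCa2a (CCND3, CDKN2A), against 7.86%. The differences between VCaP and LNCaP in CDKN2C (adjusted p = 0.0798) and CCND1 (adjusted p = 0.197) did not pass, so these genes, each called in 1 of the lines, are not shown to differ between them. Between MDAPCa2a and LNCaP 0 of 10 were called, against 1.12% of all genes (DESeq2 called 0, and 2 had p under 0.05 before adjustment). Of these 5 differences, that of CDKN2A between VCaP and MDAPCa2a was called in all 12 alternatives run, and the other 4 each lost the call without at least 1 library. In the VCaP libraries other transcripts also moved with androgen. The liver-type list summed to 264 to 320 CPM in stripped serum and 15.5 to 65.0 CPM with androgen. In the same order, the fibroblast list summed to 39.9 to 160 CPM, mostly LUM, and to 7.28 to 8.36 CPM. The endothelial list summed to 0.674 to 1.43 CPM and 12.0 to 12.1 CPM. Their part in the result was not tested.

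Opposite androgen effects on growth genes in LNCaP and VCaP were known when the 10 genes and the pathway lists were chosen, so the counts of the lists are a description and no independent evidence. Of 15 S phase and division genes, 12 fell in LNCaP (median log2 change -1.20) and 11 rose in VCaP (median 1.22), against medians of -0.01 and -0.03 over all genes tested, of which 7.73% and 17.5% were called. TOP2A, a topoisomerase of dividing cells, fell by 1.59 ± 0.40 in LNCaP, and TYMS, which makes thymidylate, by 1.56 ± 0.32. CCNB1, the mitotic cyclin, rose by 2.35 ± 0.40 in VCaP, and RRM2, a subunit of ribonucleotide reductase, by 2.16 ± 0.49. The summed level of the 15 genes was 1504 and 1624 CPM in LNCaP stripped serum and 528 and 930 CPM with androgen, and 885 and 1477 CPM in VCaP stripped serum and 2321 and 3294 CPM with androgen. The difference between the lines passed for 13 of the 15 (median 2.28), against 10.9% of all genes, and for 8 without VCaP stripped replicate 1. The LNCaP count fell to 0 without stripped replicate 1 or 2 and to 2 without androgen replicate 1, and was 6 when the plastic control libraries stayed out of the fit and 5 in a fit of all lines. The VCaP count fell to 1 without stripped replicate 1 or androgen replicate 2, and to 7 without androgen replicate 1.

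Of 13 pocket proteins and E2F factors, 2 fell in LNCaP (7.73% of all genes were called), E2F1 (log2 -1.17 ± 0.23) and E2F2 (-1.03 ± 0.28). In VCaP, where 17.5% of all genes were called, 3 rose, E2F1 (1.88 ± 0.35), E2F2 (1.73 ± 0.43) and the late repressor E2F8 (1.62 ± 0.33), and TFDP2, an E2F partner, fell (-0.73 ± 0.20). Of 7 kinases and their activators, CDK6 rose in both lines, by 2.05 ± 0.40 in LNCaP (adjusted p = 0.0134) and 2.41 ± 0.50 in VCaP (adjusted p = 0.0118). CDK4 fell in LNCaP by 0.63 ± 0.16, and CDC25A, the phosphatase that activates CDK2, and CDK2 itself rose in VCaP (1.54 ± 0.37 and 1.35 ± 0.24). Of 6 genes of cyclin and inhibitor degradation, CKS1B, the cofactor of the ligase that destroys p27, fell in LNCaP (-1.11 ± 0.29) and rose in VCaP (1.67 ± 0.35), and 1 of 6 in VCaP is near the share over all genes. The 7 LNCaP genes named in these lists (TOP2A, TYMS, E2F1, E2F2, CDK6, CDK4, CKS1B) each lost the call without stripped replicate 1 and without stripped replicate 2, and all but TYMS also without androgen replicate 1. E2F1 (adjusted p = 0.274), E2F2 (0.388), CKS1B (0.108) and TOP2A (0.104) lost it in a fit of all 34 libraries, and CDK4 (0.0759), E2F2 (0.0797), CKS1B (0.0574) and TOP2A (0.0510) without the plastic control libraries. In VCaP, RRM2, E2F1, E2F2, E2F8, TFDP2 and CDC25A each lost the call without stripped replicate 1 and without androgen replicate 2. CDK2 lost it without stripped replicate 1 (adjusted p = 0.0514), and CDK6 (0.0684) and CKS1B (0.0610) without androgen replicate 2. E2F2 (0.0541) and TFDP2 (0.0860) also lost it without androgen replicate 1, and CCNB1 kept it without any 1 of the 4 libraries. In MDAPCa2a 0 genes of these lists were called and 0 had an unadjusted p below 0.05, with all 15 S phase genes at positive estimates (median 0.53).

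**Figure D5:**
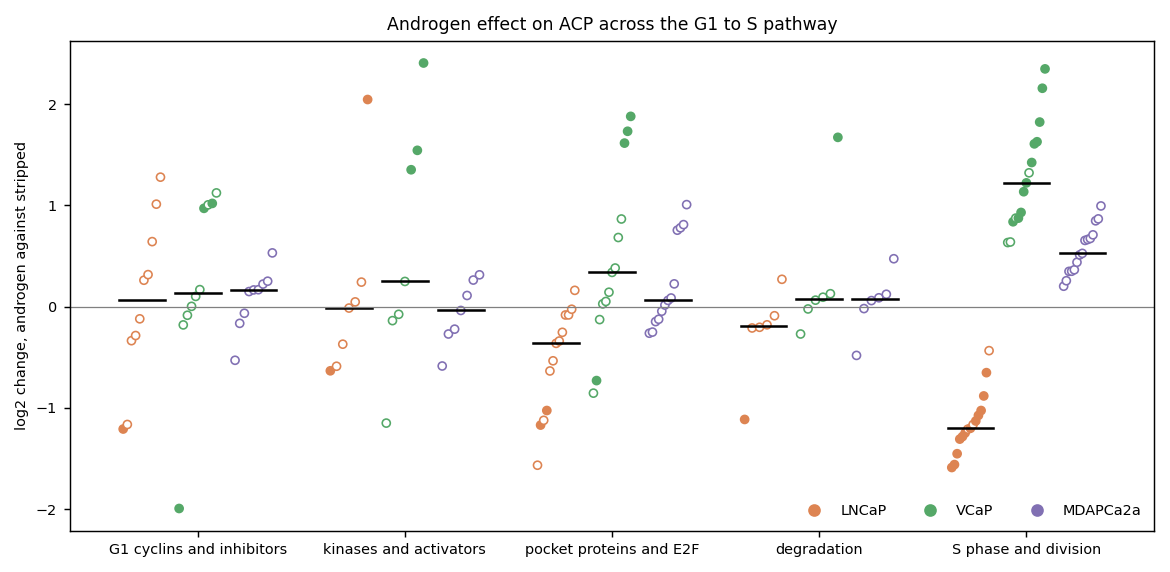
Log2 change with androgen against stripped serum on ACP for the 10 genes and 4 pathway lists in LNCaP, VCaP and MDAPCa2a, with 1 point a gene, filled where called, and a bar at the list median. The S phase and division genes lie below 0 in LNCaP and above 0 in VCaP, and the 10 genes spread to both sides in either line.

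Over the 17 group means, after the mean of each line was subtracted, CDKN2C, CCNE1, CCNE2 and CCND3 tracked the median of the S phase genes most closely (Pearson r of 0.815, 0.698, 0.690 and 0.602), and CDKN2A had the lowest value (r = -0.464). These are descriptions over groups that share lines and libraries. CDKN2C was most like LMNB1 (r = 0.944) and MCM2 (r = 0.940) over the 17 group means, and most like SLC22A10 (r = 0.902) and LMNB1 (r = 0.900) after the line means were subtracted. CCNE2 was most like DSCC1 (r = 0.929) and UBL7-AS1 (r = 0.906) over the group means, and C1orf112 (r = 0.959) and DSN1 (r = 0.956) after the subtraction. For CDKN2A these were C16orf74 (r = 0.985) and JAZF1 (r = 0.978), and then DGAT2 (r = 0.945) and SLC30A4 (r = 0.933).

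RWPE in androgen medium on ACP was compared with its own control medium on ACP. There 3 of 10 genes were called, against 19.1% of all genes: CCNE2 rose, and CDKN1C and CDKN2B fell. Markers of basal epithelium moved with this comparison, summing to 12646 to 15852 CPM in control medium and 3358 to 11098 CPM in androgen medium, and their part in the result was not tested. By a chi-square of counts per gene, androgen replicate 3 lay further from replicates 1 and 2 (125 and 92.2) than these did from each other (31.9), though log2 CPM correlated alike in the 3 pairs (r of 0.987, 0.989 and 0.987). Without it 6102 of all genes and 6 of the 10 were called.

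CCNE2 in RWPE on ACP was 21.4 and 25.4 CPM in control medium and 62.4, 43.6 and 33.4 CPM in androgen medium, without overlap (log2 1.01 ± 0.28, adjusted p = 0.0320). CDKN1C was 19.0 and 16.5 CPM and then 9.79, 11.4 and 7.32 CPM (log2 -0.88 ± 0.22, adjusted p = 0.0242). CDKN2B was 77.0 and 76.6 CPM and then 35.2, 46.5 and 38.8 CPM, 1.89-fold lower (log2 -0.92 ± 0.16, adjusted p = 0.0170). All 3 androgen medium libraries lay below both control libraries in CDKN1C and CDKN2B. Leaving out control replicate 1 or 2 ended all 3 calls (adjusted p of 0.0913 to 0.318), and leaving out androgen replicate 1 ended those of CCNE2 (0.0772) and CDKN1C (0.0512). CDKN2A, which stood at 586 and 459 CPM and then 637, 655 and 444 CPM, overlapped. Of the 4 androgen-driven check genes 0 were called in RWPE and 0 had an unadjusted p below 0.05, and of the 15 S phase genes 3 rose and 1 fell. That count of 4 was 0 without control replicate 1 and in a fit of all 34 libraries, 1 without the plastic control libraries, 8 with a replicate block and 9 without androgen replicate 3.

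Stripped against control serum on ACP called 0 of 10 in LNCaP, against 5.37% of all genes, and 0 of 10 in VCaP, against 0.820%. On plastic it called 0 of 10 in LNCaP (9.45% of all genes), 0 of 10 in VCaP (0.890%) and 1 of 9 in MDAPCa2a (1.58%). The stripped arm of VCaP on plastic was 1 library, assumed in the fit to vary like the other groups, and a fit of all 34 libraries called 3 of the 10 there. In the 4 comparisons without a call, DESeq2 called 0, 2, 0 and 1 genes in the order given, and 1, 2, 2 and 4 had p under 0.05 before adjustment. The MDAPCa2a gene was CDKN1B, at 262 and 264 CPM in control medium and 158 and 148 CPM in stripped serum (log2 -0.74 ± 0.14, adjusted p = 0.0444), a call that was lost without any 1 of the 4 libraries (adjusted p of 0.152 to 0.395) and with a replicate block (0.0691). In VCaP on ACP, CCNE2 and CDKN2C lay apart between media without passing the test. CCNE2 was 72.0 and 66.1 CPM in control medium and 14.3 and 31.9 CPM in stripped serum (log2 -1.57 ± 0.41, adjusted p = 0.102), and CDKN2C 68.1 and 57.5 CPM and then 22.8 and 35.6 CPM (log2 -1.09 ± 0.30, adjusted p = 0.109). In the same comparison 7 of the 15 S phase genes fell (median -1.71), as did E2F1, E2F2, E2F7 and E2F8, CDK6 and CDK2. Over all genes that comparison called 128, and 0 without control replicate 1. The corresponding LNCaP comparison called 0 of the 15 (median -0.42), with 1 at an unadjusted p below 0.05.

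The surface was compared within a medium. In stripped serum, ACP against plastic called 0 of 10 in LNCaP (6.12% of all genes), 0 of 10 in VCaP (0% of all genes) and 0 of 9 in MDAPCa2a (0.00734%). Of the 10 genes, DESeq2 called 1 in LNCaP, 0 in VCaP and 0 in MDAPCa2a, and 1, 0 and 3 had p under 0.05 before adjustment. The VCaP comparison, with 1 library on plastic, had 511 of all genes at an unadjusted p below 0.05. CDKN2B in LNCaP was 3.47 and 2.88 CPM on plastic and 9.33 and 6.25 CPM on ACP, without overlap, but was not called (log2 1.32 ± 0.41, adjusted p = 0.0746). In control medium, ACP called 2 of 10 in RWPE, against 4.16% of all genes, 1 of 10 in LNCaP, against 12.6%, and 0 of 10 in VCaP, against 0.0448% (0 at an unadjusted p below 0.05, and 0 by DESeq2). CCNE2 was higher on ACP in RWPE (12.2 and 8.25 CPM on plastic, 21.4 and 25.4 CPM on ACP, log2 1.23 ± 0.30, adjusted p = 0.0483) and in LNCaP (14.9 and 20.9 CPM, then 55.4 and 28.3 CPM, log2 1.33 ± 0.37, adjusted p = 0.0387). CDKN1C was higher on ACP in RWPE (7.66 and 8.79 CPM, then 19.0 and 16.5 CPM, log2 1.14 ± 0.24, adjusted p = 0.0302). None of these groups overlapped. Both RWPE calls were lost without any 1 of the 4 libraries (adjusted p of 0.132 to 0.338), and the LNCaP call without either plastic library (0.260 and 0.130) or ACP replicate 1 (0.298).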

How the data were processed

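PolyA RNA-seq was available for 34 libraries of 4 prostate lines, grouped by the labels into 17 groups. The authors deposited raw read counts per gene symbol, made with STAR and HTSeq on hg19, per the submitters' processing notes, versions and strand setting not given in the sources used here. Counts of overlapping antisense genes therefore cannot be told apart (CCND1 with LTO1, CCND2 with CCND2-AS1, CCND3 with AL513008.1, CCNE2 with INTS8, CDKN2A with CDKN2B-AS1). From the counts, CPM were computed on TMM library sizes over all lines. Per-length levels used the principal transcript of GENCODE v29 (GRCh38), and promoter windows came from RefSeq (GRCh38.p14), which matched 6 of the 10 genes used.

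Tests were edgeR 4.0.16 quasi-likelihood F tests (filterByExpr with a minimum count of 10, TMM, R 4.3.3), fitted within each line for medium and surface, and over all 34 libraries for line differences and for differences between androgen effects. P-values were two-sided and Benjamini-Hochberg adjusted over all genes tested, with a threshold of 0.05, and SEs were the log2 change divided by the root of F. Groups of 2 limit precision, and the part of depth was not tested. The script was tested on simulated counts in which 200 genes were changed in the androgen group. These were drawn only from genes above a minimum mean count, and some of the 10 genes lay below it. The shares that follow do not hold for genes with fewer reads. At a log2 change of 1 it called 68% of them in LNCaP, 23.5% in VCaP and 42% in MDAPCa2a. For the VCaP minus LNCaP difference it called 4% at a change of 1 and 89% at 2. The number of changed genes in the data is not known, so these shares need not carry over. Alternatives were RLE size factors, no count filter, DESeq2 1.42.0, a replicate block, a fit of all lines, a fit without plastic control libraries, and leaving out each library.

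All 10 genes were tested in each comparison, apart from CCND2 within MDAPCa2a. Every gene called is named for the medium, surface and androgen comparisons. Between lines the number called is given, and not every gene called is named. Of each pathway list, counts are given and up to 4 of the called genes with the largest changes may be named. Likeness is the Pearson r of log2 CPM over the 17 group means, among genes whose mean reached 5 CPM in some group. The genes and lists were chosen with earlier results of these data known. Over 25 pairs of groups, deviations of same-numbered libraries correlated at -0.470 to 0.551 (8 above 0.1, 7 below -0.1), so the numbers were not taken to pair libraries. Between the ACP stripped and ACP androgen groups the value was 0.551 in MDAPCa2a, 0.230 in LNCaP and -0.153 in VCaP. The reported fits do not model such shared deviations.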

Additional observations from a re-analysis of the deposited data

Results flagged for a closer look

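Each of these results was picked out because the androgen effect on ACP differed between lines by the test of the difference itself (edgeR, adjusted p below 0.05, 2 libraries in each of 4 groups). For CCND3 the effect was 1.13 higher on the log2 scale in VCaP than in LNCaP, and 1.04 higher in VCaP than in MDAPCa2a. For CCNE2 it was 2.15 higher in VCaP than in LNCaP. For CDKN2A the difference was -1.68 between VCaP and LNCaP and -2.26 between VCaP and MDAPCa2a.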

How the results depend on the processing

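Counts of the 10 genes called moved by more than 1.5 times, from the reported value, as follows. With DESeq2 they moved for androgen LNCaP 1 to 2, stripped on ACP VCaP 0 to 2, stripped on plastic VCaP 0 to 1, surface in stripped serum LNCaP 0 to 1. With RLE size factors they moved for surface in control medium RWPE 2 to 1. With a fit of all 34 libraries they moved for androgen medium RWPE 3 to 1, stripped on ACP VCaP 0 to 2, stripped on plastic LNCaP 0 to 1, VCaP 0 to 3, surface in stripped serum LNCaP 0 to 1, surface in control medium RWPE 2 to 0, LNCaP 1 to 0. With no count filter they moved for androgen LNCaP 1 to 3, androgen effect MDAPCa2a minus LNCaP 0 to 1, stripped on ACP LNCaP 0 to 1, VCaP 0 to 2, stripped on plastic VCaP 0 to 2, surface in stripped serum LNCaP 0 to 2. With a replicate block they moved for androgen medium RWPE 3 to 5, stripped on ACP VCaP 0 to 1, stripped on plastic MDAPCa2a 1 to 0, surface in control medium RWPE 2 to 4. The cause was not tested. Leaving out 1 library gave ranges of androgen LNCaP 0 to 3, VCaP 1 to 3, androgen medium RWPE 0 to 6, androgen effect VCaP minus LNCaP 1 to 5, VCaP minus MDAPCa2a 1 to 2, stripped on ACP VCaP 0 to 1, stripped on plastic MDAPCa2a 0 to 0, surface in control medium RWPE 0 to 0, LNCaP 0 to 2, line difference VCaP against LNCaP 2 to 6, MDAPCa2a against LNCaP 3 to 5. The other 13 comparisons kept counts within 1.5 times. The fit without plastic control libraries kept the count of the 10 genes in all 9 comparisons where it was run. Signs turned, on leaving out 1 library, for changes that were not called in the reported fit. The ranges were -0.68 to 0.026 for CCNE1 in LNCaP with androgen and, in VCaP with androgen, -1.18 to 0.55 for CCNE1, -0.35 to 0.053 for CDKN1B, -0.47 to 0.37 for CDKN1C (-0.074 with the replicate block), -0.15 to 0.66 for CDKN2B and -0.14 to 0.45 for CDKN2C. For CDK6 the VCaP minus LNCaP difference ranged from -0.18 to 1.15. Apart from the values named here and in the report, the block turned no sign.

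Counts of all genes called moved by more than 1.5 times as follows. With DESeq2 they moved for androgen LNCaP 1133 to 1759, MDAPCa2a 0 to 3, androgen effect MDAPCa2a minus LNCaP 194 to 471, stripped on ACP LNCaP 787 to 1331, VCaP 128 to 852, stripped on plastic VCaP 139 to 1157, MDAPCa2a 215 to 616, surface in stripped serum LNCaP 897 to 1786, VCaP 0 to 3, MDAPCa2a 1 to 212, surface in control medium RWPE 595 to 1401, VCaP 7 to 40. With RLE size factors they moved for stripped on plastic VCaP 139 to 25. With a fit of all 34 libraries they moved for androgen LNCaP 1133 to 739, VCaP 2727 to 4545, MDAPCa2a 0 to 1, stripped on ACP VCaP 128 to 1057, stripped on plastic VCaP 139 to 1561, MDAPCa2a 215 to 393, surface in stripped serum LNCaP 897 to 342, MDAPCa2a 1 to 27, surface in control medium LNCaP 1845 to 647, VCaP 7 to 64. With a fit without plastic control libraries they moved for androgen LNCaP 1133 to 696, androgen medium RWPE 2730 to 1402, stripped on ACP LNCaP 787 to 504, VCaP 128 to 326, surface in stripped serum LNCaP 897 to 372, MDAPCa2a 1 to 0. With no count filter they moved for androgen LNCaP 1133 to 2028, MDAPCa2a 0 to 9, androgen effect MDAPCa2a minus LNCaP 194 to 493, stripped on ACP LNCaP 787 to 1732, VCaP 128 to 927, stripped on plastic LNCaP 1385 to 2193, VCaP 139 to 1231, MDAPCa2a 215 to 855, surface in stripped serum LNCaP 897 to 1827, VCaP 0 to 1, MDAPCa2a 1 to 320, surface in control medium RWPE 595 to 1226, LNCaP 1845 to 2933, VCaP 7 to 72. With a replicate block they moved for androgen medium RWPE 2730 to 5741, stripped on ACP VCaP 128 to 340, stripped on plastic VCaP 139 to 3, surface in control medium RWPE 595 to 2661. Leaving out 1 library gave ranges of androgen LNCaP 201 to 1771, VCaP 766 to 2318, MDAPCa2a 0 to 3, androgen medium RWPE 0 to 6102, androgen effect VCaP minus LNCaP 1013 to 2023, MDAPCa2a minus LNCaP 77 to 598, VCaP minus MDAPCa2a 646 to 1685, stripped on ACP LNCaP 191 to 771, VCaP 0 to 309, stripped on plastic LNCaP 310 to 1444, VCaP 90 to 220, MDAPCa2a 0 to 7, surface in stripped serum LNCaP 66 to 1278, MDAPCa2a 0 to 303, surface in control medium RWPE 4 to 106, LNCaP 0 to 2385, VCaP 1 to 19. The shares over all genes in the report rest on the reported counts.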
